A study of Drosophila melanogaster with 2 samples.

Results

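On the X chromosome of Drosophila melanogaster, 316 MBD-R2 peaks lay away from annotated gene starts, exons and gene ends, of 1386 peaks on the X and 7544 in the list made from both replicates. A peak was counted as distal when its summit, the position of highest signal, was over 500 bp from every annotated transcription start site (TSS), in no exon, and over 500 bp from every transcript 3′ end. Of the other X peaks, 1011 had a summit within 500 bp of a TSS, called promoter peaks here, and 59 lay in exons or at 3′ ends. The same rule gave 1167 distal peaks on the 4 large autosomal arms, the set used for comparison.

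The assay was chromatin immunoprecipitation with sequencing (ChIP-seq) with an anti-GFP antibody on embryos of a transgenic line whose MBD-R2 carries an eGFP tag. Embryos were collected whole at 0 to 24 h of age, so all embryonic tissues and stages were mixed, and their sex was not recorded. There was 1 group of 2 biological replicates, with no contrast between conditions, and the control libraries that the labels name were not analysed here. Peaks are not replicates and permuting 2 samples of 1 group is not possible, so the values below carry no p-value. The shares, densities and signals that compare the X with the autosomes are given for each replicate's own list where these were computed. Values of hosts, gaps, base composition and motifs come from the list of both replicates, except where another list is named.

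MBD-R2 belongs to the NSL (non-specific lethal) complex, which contains the histone acetyltransferase MOF and is best known at promoters of broadly active genes on every chromosome. MOF also works in the MSL complex, which coats the single X of males and raises its transcription in dosage compensation. Introns and intergenic sequence can hold enhancers and other regulatory elements as well as starts of transcripts that an annotation lacks.

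Windows around 9 of the 10 strongest X distal summits show the sequence at the peaks, 201 bases each with the summit in the centre. They are from the RefSeq copy of the dm6 assembly, plus strand, 5′ to 3′. Each lies in an intron of the gene named. Capitals mark the 6-base word ACAGTG or its reverse complement CACTGT, which is described further on.
CG32772 chrX:4910274-4910474: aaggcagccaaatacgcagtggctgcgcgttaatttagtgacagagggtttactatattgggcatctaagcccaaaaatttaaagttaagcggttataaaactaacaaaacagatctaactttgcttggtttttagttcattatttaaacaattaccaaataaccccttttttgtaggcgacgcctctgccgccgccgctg
Tlk chrX:3742125-3742325: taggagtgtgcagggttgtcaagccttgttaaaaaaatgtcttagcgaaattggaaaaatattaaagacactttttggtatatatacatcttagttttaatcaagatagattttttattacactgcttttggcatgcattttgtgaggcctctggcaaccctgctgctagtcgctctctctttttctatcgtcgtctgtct
CG3726 chrX:5918806-5919006: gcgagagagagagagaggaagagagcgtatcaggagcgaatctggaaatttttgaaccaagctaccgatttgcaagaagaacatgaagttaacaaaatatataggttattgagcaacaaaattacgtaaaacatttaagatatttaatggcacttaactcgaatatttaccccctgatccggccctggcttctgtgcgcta
norpA chrX:4324878-4325078: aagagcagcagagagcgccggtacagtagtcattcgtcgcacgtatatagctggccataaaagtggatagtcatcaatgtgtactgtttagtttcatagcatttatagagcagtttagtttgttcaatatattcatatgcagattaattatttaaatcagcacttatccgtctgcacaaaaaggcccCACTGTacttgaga
CHES-1-like chrX:7706911-7707111: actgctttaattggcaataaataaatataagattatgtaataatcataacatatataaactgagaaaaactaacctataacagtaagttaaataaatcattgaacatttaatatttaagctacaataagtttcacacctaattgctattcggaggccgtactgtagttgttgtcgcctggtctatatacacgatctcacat
NFAT chrX:13640428-13640628: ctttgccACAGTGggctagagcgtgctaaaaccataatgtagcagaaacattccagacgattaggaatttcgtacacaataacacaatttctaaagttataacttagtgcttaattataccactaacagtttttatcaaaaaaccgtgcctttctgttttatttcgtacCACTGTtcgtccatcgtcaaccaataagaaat
Raf chrX:2297607-2297807: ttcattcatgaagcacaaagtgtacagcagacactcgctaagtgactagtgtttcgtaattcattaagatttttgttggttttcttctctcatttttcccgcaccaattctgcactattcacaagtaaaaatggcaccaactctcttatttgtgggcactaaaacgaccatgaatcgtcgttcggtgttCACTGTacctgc
LPCAT chrX:9579185-9579385: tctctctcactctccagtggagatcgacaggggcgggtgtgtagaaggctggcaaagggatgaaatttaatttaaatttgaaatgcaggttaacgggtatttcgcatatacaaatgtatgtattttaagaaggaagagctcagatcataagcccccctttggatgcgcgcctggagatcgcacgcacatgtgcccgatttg
prage chrX:1830667-1830867: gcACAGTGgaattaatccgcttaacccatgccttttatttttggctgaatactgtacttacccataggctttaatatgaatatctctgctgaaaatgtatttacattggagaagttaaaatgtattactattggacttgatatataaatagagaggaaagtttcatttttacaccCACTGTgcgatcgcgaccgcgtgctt
The windows of NFAT and prage hold the word on both sides of the summit, each copy reading toward the summit. Windows in CG32767 and CG1737, which also hold such a pair, are shown for comparison of the spacing.
CG32767 chrX:5083661-5083861: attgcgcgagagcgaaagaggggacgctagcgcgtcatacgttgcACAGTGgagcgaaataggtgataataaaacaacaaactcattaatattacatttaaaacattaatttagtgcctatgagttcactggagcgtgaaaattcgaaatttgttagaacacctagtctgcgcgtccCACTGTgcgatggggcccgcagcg
CG1737 chrX:11351444-11351644: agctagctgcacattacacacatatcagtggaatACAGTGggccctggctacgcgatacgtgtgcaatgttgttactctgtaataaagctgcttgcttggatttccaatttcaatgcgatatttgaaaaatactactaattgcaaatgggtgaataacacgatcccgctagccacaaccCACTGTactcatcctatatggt

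The strongest X distal peaks were in introns of genes of varied roles. The signal, the authors' value for each peak, has an unstated scaling. It was 844.9 at the peak in CG32772, with 214.8 in replicate 1 and 614.9 in replicate 2. This summit was 1272 bp from the nearest TSS, that of CG32772 itself.

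The next was in Tlk, which encodes the Tousled-like kinase of chromatin assembly, at 779.2 (228.4 and 558.5 in replicates 1 and 2). CG3726 had 692.6 (202.9 and 486.9 in replicates 1 and 2). At norpA, the phospholipase C of fly phototransduction, the signal was 664.5 (204.6 and 463.3 in replicates 1 and 2). These 4 peaks were also the 4 strongest X distal peaks in each replicate's ranking.

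CHES-1-like, a forkhead transcription factor gene, had a peak of 557.3 (153.2 and 414.0 in replicates 1 and 2). NFAT, the fly NFAT transcription factor gene, had 543.6 (129.2 and 418.5). CHES-1-like was the higher of these in replicate 1, and NFAT in replicate 2.

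Raf, the kinase between Ras and MEK, had a peak of 471.5 (135.1 and 339.1 in replicates 1 and 2). LPCAT, a lysophospholipid acyltransferase gene, had 386.7 (94.74 and 292.4). The peak in prage had 378.7 (100.9 and 268.6). The list of 12 strongest ended with CG34417 and a second peak in Tlk. Their signals were 377.0 (95.89 and 286.4) and 332.5 (67.33 and 263.0). In each of the 12, replicate 2 was higher than replicate 1, and each was in both replicates' own lists and in the conservative list.

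The flanking genes stood at varied distances. CG32772 lay between CG6927, 1553 bp to the left of its summit, and CG4041, 4906 bp to the right. The norpA summit was 2747 bp from mRpL33 and 2102 bp from CG12693. The first Tlk summit stood more alone, 22590 bp from Rala and 47744 bp from HIP-R.

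Across the 316 peaks the signal ran from 4.46 to 845, with a median of 91.5 and quartiles of 64.3 and 133. The weakest sat beside other peaks: 20 of the 316 had a higher summit no more than 500 bp away, and these included each of the 14 members below 20 in signal. A peak was found for 273 of them in replicate 1's full ranking, where the median signal was 27.9 (range 9.80 to 228). In replicate 2's ranking a peak was found for 314, with a median of 69.9 (range 20.9 to 615). The 2 rankings are not scaled to each other: replicate 2 was higher at 265 of the 271 peaks found in both, by a median ratio of 2.51. The order of the peaks was partly shared, with a Spearman correlation of 0.65 over those 271 peaks (0.60 over 990 autosomal distal peaks), as a description without a test.

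**Figure D1:**
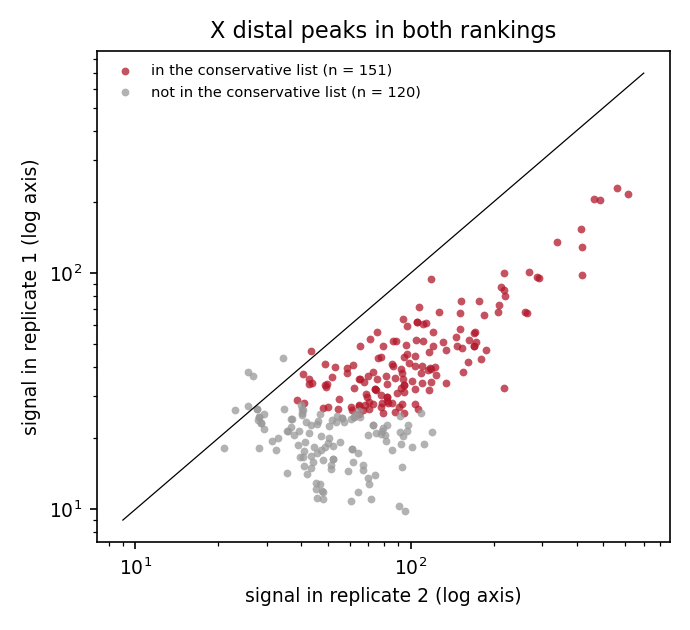
Each point is 1 of the 271 X distal peaks found in both replicates' full rankings, with its signal in replicate 2 (x, log axis) and in replicate 1 (y, log axis). Red points are in the conservative list, grey points are not, and the line marks equal signal. Of the 271 points, 265 lie below the line.

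The distal peaks were found again less often than promoter peaks. Replicate 1's own list held 72 of the 316 (22.8%), against 55.3% of all 7507 peaks on the 5 arms. Replicate 2's own list held 266 (84.2%), against 88.4%, and the conservative list 154 (48.7%), against 73.7%. Both replicate lists held 70 (22.2%), and neither held 48 (15.2%). Among X promoter peaks, 62.9% were in replicate 1's list, and among autosomal distal peaks 18.7%. Most X distal peaks were thus in the list of 1 replicate, replicate 2. Of the 100 strongest X distal peaks, 62 were in replicate 1's list.

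The share of peaks that were distal was higher on the X. It was 22.8% on the X (316 of 1386, Wilson 95% interval 20.7 to 25.1) and 19.1% on the autosomes (1167 of 6121, 18.1 to 20.1). These intervals cover counting error only. In replicate 1's list the share was 10.1% on the X and 6.44% on the autosomes, in replicate 2's list 23.1% and 20.1%, and in the conservative list 15.6% and 11.5%. Each list had the X higher, and in replicate 2's list the intervals overlapped (20.9 to 25.4 on the X and 19.2 to 21.2 on the autosomes). The autosomal arms differed among themselves, with 19.6% on 2L, 17.5% on 2R, 21.3% on 3L and 18.1% on 3R, so the X stood 1.51 percentage points above 3L.

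The density of distal peaks depended on how repeat-rich sequence was treated. Over the sequence that the rule allows, the X had 21.2 distal peaks per Mb (exact Poisson interval 18.9 to 23.6, over 14.9 Mb) and the autosomes 16.7 (15.7 to 17.7, over 70.0 Mb), a ratio of 1.27. Over 30% of bases were soft-masked in 1 of 24 windows of 1 Mb on the X and in 17 of 112 on the autosomes. Without these windows the X had 21.9 per Mb (19.5 to 24.4) and the autosomes 21.1 (19.9 to 22.4), a ratio of 1.04. By arm the values were then 19.8 on 2L, 23.2 on 2R, 23.4 on 3L and 18.9 on 3R, with the X inside their range. This setting was chosen after the data were seen, and a first threshold of 50% removed 1 window and gave a ratio of 1.25.

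**Figure D2:**
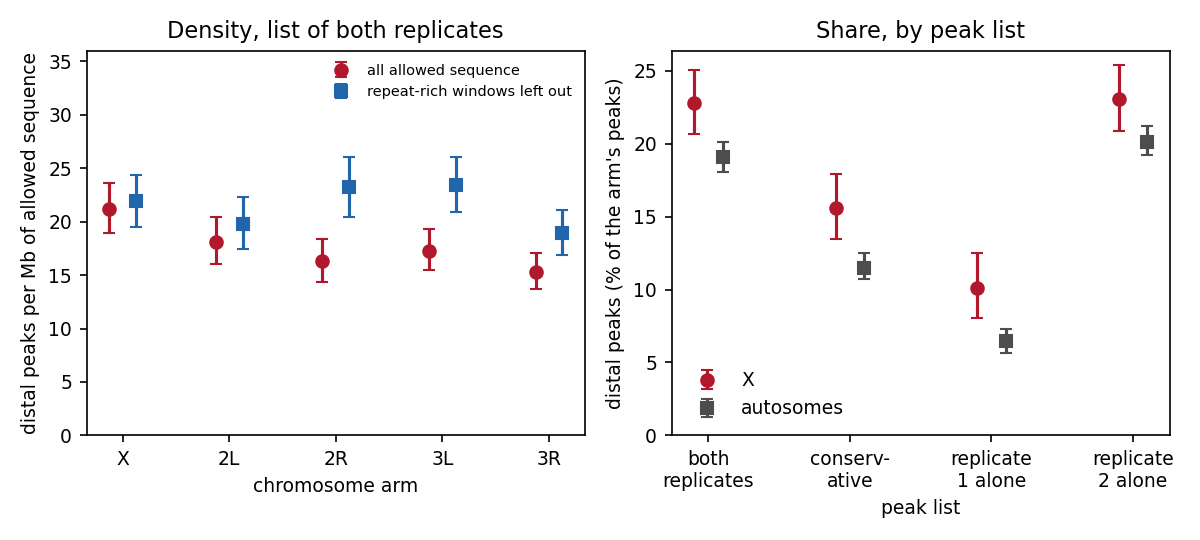
Left, distal peaks per Mb of sequence allowed by the distal rule on each arm, over the allowed sequence in full (circles) and without 1 Mb windows over 30% soft-masked (squares), with exact Poisson 95% intervals. Right, distal peaks as a percentage of the peaks of the X (circles) and of the 4 autosomal arms (squares) in 4 peak lists, with Wilson 95% intervals. The X is highest on the left only for the full sequence, at 21.2 against 15.3 to 18.1 per Mb, and is above the autosomes in each list on the right.

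Most X distal peaks were intronic. Introns held 268 (84.8%) and intergenic sequence 48 on the X, against 898 (76.9%) and 269 on the autosomes. Intron sequence made up 66.7% of the allowed sequence on the X and 58.5% on the autosomes. The intronic share was 88.7% on the X and 73.1% on the autosomes in replicate 1's list, and 87.0% and 76.7% in replicate 2's. Per Mb of the full allowed sequence, introns held 26.9 peaks on the X (23.8 to 30.3) and 21.9 on the autosomes (20.5 to 23.4). Those intervals do not overlap, and neither do those of the conservative list, at 14.2 (11.9 to 16.7) and 9.84 (8.90 to 10.8). In replicate 1's list they do not overlap either, at 6.33 (4.86 to 8.10) and 3.91 (3.32 to 4.56). In replicate 2's list they overlap, at 27.6 (24.5 to 31.1) and 23.1 (21.6 to 24.6). In the list of both replicates, intergenic sequence held 9.67 per Mb on the X (7.13 to 12.8) and 9.27 on the autosomes (8.20 to 10.4). Without repeat-rich windows, introns held 27.0 peaks on the X (23.9 to 30.5) and 26.1 on the autosomes (24.4 to 27.9). Intergenic sequence then held 10.6 on the X (7.82 to 14.1) and 12.8 on the autosomes (11.3 to 14.4). In that setting the intervals overlap for both classes. Introns were the denser class on the X and on the autosomes in either setting.

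Within introns, the X peaks were in the first intron less often. In the canonical transcript of the host, 104 of 228 X distal peaks were in the first intron (45.6%, 39.3 to 52.1), against 447 of 770 on the autosomes (58.1%, 54.5 to 61.5). First introns made up 30.6% of the allowed canonical intron sequence on the X and 31.0% on the autosomes, so both sets exceeded their share of sequence.

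The X distal peaks were slightly stronger than autosomal distal peaks in the list of both replicates, and replicate 2 carried that difference. The median signal was 91.5 on the X and 80.3 on the autosomes (quartiles 61.8 and 119), a log2 difference of 0.19. In replicate 2's list the log2 difference was 0.25 and in replicate 1's list 0.05. At the peaks found in both rankings, 271 on the X and 990 on the autosomes, it was 0.23 in replicate 2 and 0.02 in replicate 1. Promoter peaks differed the other way, with medians of 119 on the X and 141 on the autosomes, a log2 difference of -0.24, and -0.22 in replicate 1's list and -0.25 in replicate 2's. Males carry a single X and females a pair, the sex of the embryos was not recorded and no control library was analysed, so X copy number was not accounted for in these differences. Distal peaks were 0.38 below promoter peaks in log2 signal on the X and 0.81 below on the autosomes. Intronic X distal peaks had a median signal of 94.5 and intergenic ones 67.4, against 79.6 and 84.1 on the autosomes.

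Many of the peaks shared a host gene. Of 162 protein-coding hosts, 106 held 1 peak, 28 held 2 and 28 held 3 or more. The last group held 111 peaks (35.1% of the 316). Its genes had a median span of 50.8 kb (9.56 to 394), against 17.8 kb (2.32 to 145) for hosts of 1 peak, and a median of 0.126 peaks per kb of allowed sequence, against 0.117. For 51 peaks no protein-coding gene spanned the summit, and 11 lay in more than 1. The host counts include summits close to a stronger one. CHES-1-like, Zdhhc8, NFAT, Drak, Ten-a, flw, schlank, CG15465 and rg each held a summit within 500 bp of a stronger one. Host counts without such summits were not computed, so these peaks may not be separate sites.

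CHES-1-like held 9 peaks over 15328 bp, with signals from 7.33 to 557. The strongest after its 557.3 peak were 304.2 (87.15 in replicate 1 and 211.8 in replicate 2) and 262.6 (76.22 and 177.0). Of its 9 peaks, 8 were in the conservative list. Tlk held 8 peaks over 38899 bp, from 51.5 to 779, and 3 of them were in replicate 1's list. In both genes the strongest peak stood well above the next.

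The gene kirre, which encodes an immunoglobulin-family adhesion protein of myoblast fusion, held 7 peaks over 310450 bp, from 54.5 to 216. Its peaks of 215.8 and 94.37 also lay within CG32795, a gene inside the kirre span. Raf held 6 peaks from 56.6 to 472, and Zdhhc8, a palmitoyltransferase gene, 6 from 7.49 to 117. The second strongest Raf peak had 202.0, above each of the Zdhhc8 peaks.

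CG1677 and Hr4 held 5 each, at 46.2 to 233 and 76.9 to 253. Each of the 5 CG1677 peaks had the TSS of another coding gene nearest, that of Dok, CG42780, CBP or brk, at 543 to 2368 bp. The strongest of them also lay within Dok. Hr4 encodes an orphan nuclear receptor. CG42258, Drak, Moe, NFAT and dlg1 held 4 each. Moe encodes the cytoskeletal linker moesin, Drak a death-associated protein kinase, and dlg1 the polarity scaffold Discs large. Their strongest signals ran from 118 at Drak to 544 at NFAT.

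Genes with 3 peaks were CG15465, CG43658, Ca-alpha1T, Evi5, Nrg, RhoGAP18B, Smr, Ten-a, Tis11, dnc, flw, hiw, mew, prage, rg and schlank. CG15465 and rg share the same annotated span, and their 3 peaks are the same. The 3 Evi5 peaks were nearly equal, at 149.4, 148.0 and 143.8, and each window held the 6-base word. The Ten-a peaks were weak, at 52.2 or less.

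**Figure D3:**
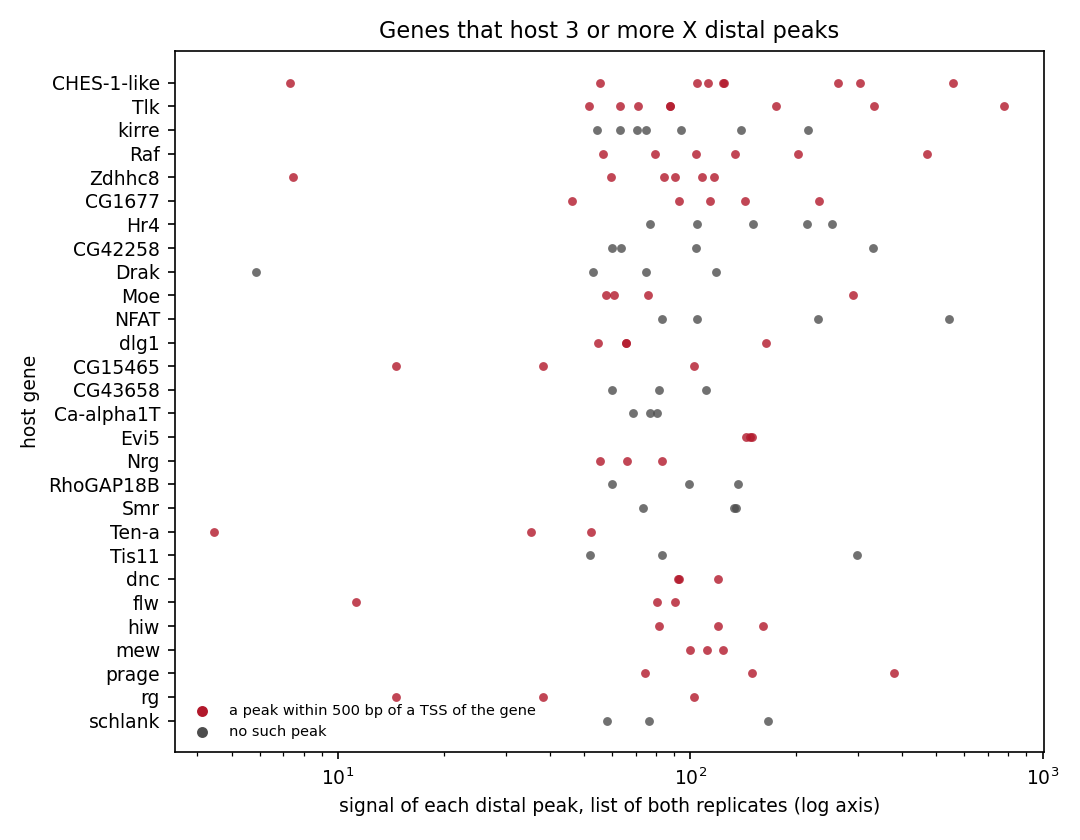
Each point is 1 X distal peak at its signal in the list of both replicates (x, log axis), in rows for the 28 genes that host 3 or more, with red rows for genes that also have a peak within 500 bp of a TSS and grey rows for the others. CHES-1-like, Tlk, NFAT, Raf and prage each hold a peak of 379 or more, and no other row does.

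Hosts often had a peak at their own promoter. A summit lay within 500 bp of a TSS in 93 of the 162 hosts (57.4%, 49.7 to 64.8), against 47.4% of 2196 X-linked protein-coding genes and 45.5% of the 629 with at least 1000 bp of allowed sequence. On the autosomes 384 of 593 hosts had one (64.8%, 60.8 to 68.5), against 43.6% of protein-coding genes there. Among the 28 hosts of 3 or more, 17 had one.

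Of the intergenic peaks the strongest lay between Atf3 and CG32812, with a signal of 235.1 (47.33 and 187.9 in replicates 1 and 2). Atf3 encodes a bZIP transcription factor, and its TSS was 1938 bp away. The next, between CG3149 and AdamTS-B, had 233.3 (76.27 and 151.7). A peak between ph-d and ph-p, the paired Polycomb-group genes, had 164.7 (60.85 and 110.2) and stood 771 bp from ph-d. In all, 8 intergenic peaks were in both replicates' own lists.

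Among X-linked genes of the 4 lists, 36 of 99 hosted a distal peak or, where no coding gene spanned the peak, had the nearest TSS. Over all 2196 X-linked protein-coding genes the share was 9.02%. These lists hold long, well-known genes and were drawn up with earlier results known, so the shares describe only these lists. Of transcription factors 10 of 32 had one (31.2%). Hr4 was strongest at 253.2, then mamo, a zinc-finger gene of the germline, at 152.1 and br, the Broad complex, at 137.6.

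Of neuronal and channel genes 11 of 30 had one (36.7%), led by norpA at 664.5, elav, a neuronal RNA-binding protein gene, at 167.0 and RhoGAP18B at 137.0. Of signalling and polarity genes 15 of 35 had one (42.9%), led by Raf at 471.5, egh, a glycosphingolipid enzyme gene, at 304.7 and kirre at 215.8. Of 3 dosage compensation genes with a symbol matched among coding genes, Sxl, the sex-determination switch gene, had one, with 27.14 in replicate 1 and 78.04 in replicate 2 at its strongest. mof and nej had none.

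The genes of the roX RNAs, which are parts of the MSL complex, had no distal peak close by. The nearest to roX1 was 18474 bp away, in ec, with a signal of 98.2. The nearest to roX2 was 42658 bp away, in Ptp10D, with 145. Peaks of other classes did lie within 500 bp of both genes, 2 at each, up to 108 at roX1 and 250 at roX2.

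Along the X the peaks were unevenly spread. The median gap between neighbours was 30863 bp (quartiles 5022 and 90850), against 31860 bp on the autosomes. Gaps of 1 kb or less numbered 36 (11.4%), against 10.9% on the autosomes, and gaps of 10 kb or less 104 (33.0%), against 31.4%. Without summits within 500 bp of a stronger one, gaps of 1 kb or less numbered 19 (6.44%), against 4.70% on the autosomes. The median gap was then 36849 bp, against 37770 bp. The closest pair stood 199 bp apart within CG15465 and rg, with signals of 38.3 and 14.6. The widest gap, 629892 bp, lay between pico and RhoGAP19D.

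The densest 1 Mb windows were 6 to 7 Mb with 23 peaks (42.1 per allowed Mb), 11 to 12 Mb with 22 (41.5) and 3 to 4 Mb with 26 (35.4). From 20 to 22 Mb there were 3 peaks in each Mb. Beyond 22 Mb there were 0 over 1.31 Mb of allowed sequence, beside 18 promoter peaks. Taking 3 counts as the upper limit for a count of 0 gives 2.29 per Mb there, a bound unlike the exact Poisson intervals above. The last X distal peak, in waw and bbx, lay 2175647 bp from the end of the sequence.

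The nearest TSS was a median of 2388 bp away (quartiles 1016 and 5401), against 2049 bp on the autosomes, and the nearest promoter peak 7952 bp, against 7575 bp. Within 1 kb of a TSS lay 76 peaks (24.1%), against 26.1% on the autosomes. The 3 peaks just inside the rule were 502, 507 and 513 bp from a TSS, with signals of 63.1, 35.0 and 101 in that order. The 3 just outside were 491, 493 and 498 bp away, with 4.87, 60.6 and 49.7.

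The 201-base windows of X distal peaks were rich in A and T at the summit. Median GC was 36.8% (33.3% in the central 81 bases), against 37.8% (35.8%) at autosomal distal peaks, 42.8% (44.4%) at X promoter peaks and 40.3% (40.7%) in windows tiled over allowed X sequence. The summit was lower in GC than its flanks at distal peaks and higher at promoter peaks.

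Promoter motifs were rare at the distal peaks. The DRE core TATCGATA, found on either strand, was in 0.633% of X distal windows, 0.600% of autosomal distal windows, 15.2% of X promoter windows and 0.497% of allowed X windows. GGTCACACT, core promoter motif 1, was in 0 of 316 X distal windows (Wilson upper bound 1.20%), against 8.41% of X promoter windows. The GAGA repeat GAGAG was in 79 of 316 X distal windows, and in 27.1%, 18.9% and 21.4% of the other sets in the same order. GAGAGAGA, a longer form that contains GAGAG, was in 2.85%, 2.57%, 2.47% and 1.58% of the 4 sets. CACACACA was in 6.33%, 7.71%, 5.24% and 6.59%, and CAGGTAG in 1.90%, 1.46%, 1.29% and 0.796%.

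A 6-base word not on that list was the most over-represented by ratio, found after the data were seen. Of 1382 words in at least 5% of X distal windows, counted on either strand, ACAGTG had the highest ratio to allowed X windows, 4.03. It was in 98 of 316 X distal windows (31.0%, 26.2 to 36.3), in 20.9% of autosomal distal windows, in 15.7% of X promoter windows, and in 7.69% of allowed X windows. Because the word was picked for its share at X distal peaks, that share and its excess over the autosomes are not evidence of their own. Ranked anew on the autosomes, the same word came first of 1439, with a ratio of 2.92. By arm, the share was 22.7% on 2L, 22.1% on 2R, 18.8% on 3L and 20.5% on 3R. No protein is named for the word here.

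The strand of the word, which the ranking did not use, turned toward the summit. Between 51 and 125 bp left of X distal summits, ACAGTG was found 52 times and CACTGT 11 times. On the right in the same range CACTGT was found 51 times and ACAGTG 11 times. So 103 of 125 copies read toward the summit (82.4%), against 76.1% of copies at autosomal distal peaks and 60.4% at X promoter peaks. The lists of replicate 1 and replicate 2 gave 82.4% and 79.5%, and the conservative list 78.8%. Of the 42 copies within 50 bp of X distal summits, 33 read toward the summit (78.6%), against 59.8% of 97 at autosomal distal peaks.

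**Figure D4:**
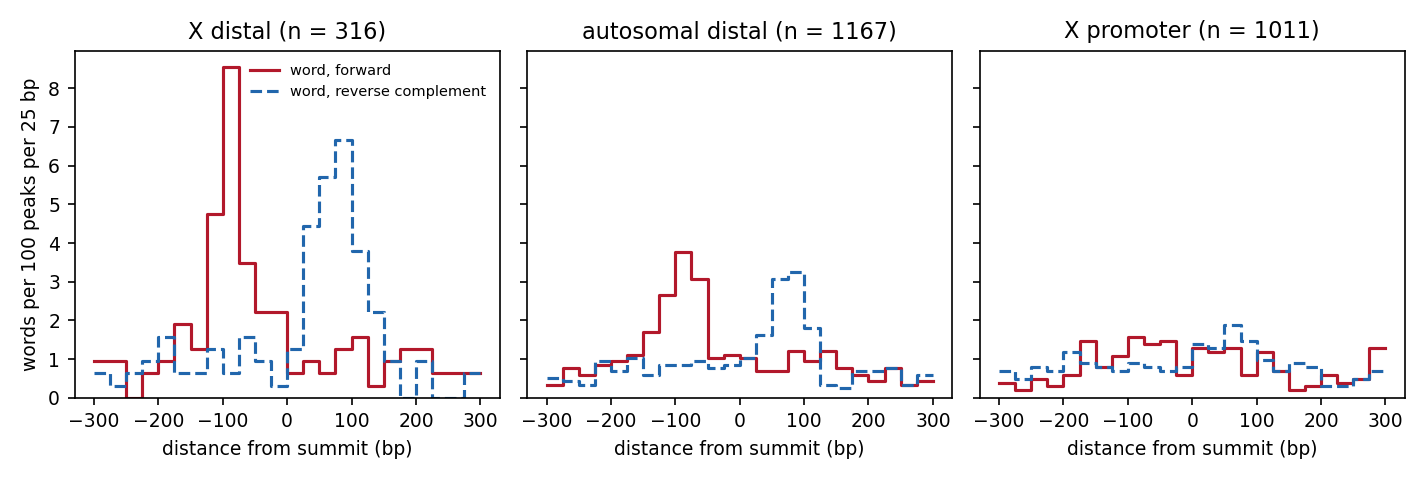
Copies of the 6-base word per 100 peaks in 25 bp steps from 300 bp left to 300 bp right of the summit, with the word on the plus strand as a solid line and its reverse complement as a dashed line. At X distal peaks (left) the solid line peaks left of the summit at 8.54 and the dashed line right of it. Autosomal distal peaks (centre) show the same shape lower. X promoter peaks (right) show it much more weakly, with the solid line reaching 1.58 left of the summit and the dashed line 1.88 right of it.

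By peak, 76 of 316 X distal peaks had at least 1 copy reading toward the summit in that range (24.1%, 19.7 to 29.1), and 21 had one reading away (6.65%). On the autosomes 161 of 1167 had a copy reading toward the summit (13.8%, 11.9 to 15.9) and 61 one reading away (5.23%). In windows tiled over allowed X sequence the shares were 2.99% and 3.01%, level between directions. By arm the share with an inward copy ran from 13.3% on 3L to 14.4% on 2L. The word was picked for its share at X distal peaks, so the higher level on the X follows in part from that choice. The direction of the copies was not used in that choice, but the range of 51 to 125 bp was set after the word was found.

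Facing pairs were more frequent at the distal peaks than in tiled windows, and their spacing fell in a narrow range that the window length caps. The word was picked for its excess in X distal windows over tiled ones, so the excess of pairs follows in part from that choice. Their direction was not used in it. In 20 of 316 X distal windows (6.33%, 4.13 to 9.57) ACAGTG on the left faced CACTGT on the right, and in 1 window the pair faced outward. Spacing is counted from the first base of ACAGTG to the first base of CACTGT. Its median was 145 bp at the X distal peaks (quartiles 142 and 163, range 122 to 174). Among autosomal distal windows 25 of 1167 (2.14%) had a facing pair, at a median of 157 bp. In allowed X windows 47 of 69475 (0.0677%) had one, at a median of 117 bp, beside 33 outward pairs. X promoter windows were also above allowed X windows, with a facing pair in 7 of 1011 (0.692%, 0.336 to 1.42) and an outward pair in 1. The 20 X windows shared no stretch of 20 bases with each other. The pairs were spread over 18 host genes, among them NFAT (162 bp), prage (173 bp), CG32767 (132 bp), CG1737 (145 bp), Sxl (167 bp) and Myc (155 bp), with CHES-1-like and mgl holding 2 each.

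The base after an inward copy was most often G, in 65 of 103 copies on the X (63.1%) and 52.0% on the autosomes. The same share for copies in tiled windows or for outward copies was not computed. X distal peaks with the word had a median signal of 99.1 and those without it 84.4, against 94.1 and 77.5 on the autosomes. Over 4 equal groups ordered from strongest to weakest, 32.9%, 34.2%, 31.6% and 25.3% of X distal windows held it. On the autosomes the groups had 28.8%, 23.3%, 17.9% and 13.7%. The weakest group had the lowest share on both, and the difference in pattern between the X and the autosomes was not tested. Both host classes held it on the X, 31.7% of intronic and 27.1% of intergenic peaks.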

How the data were processed

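Per the labels, MBD-R2-eGFP ChIP-seq was run on whole embryos in 2 biological replicates, with chromatin sheared to 200 to 800 bp. Peak lists on dm6 were deposited by the authors: a ranking and a thresholded list for each replicate, and a main and a conservative thresholded list. The signal of each peak and its score, a scaled irreproducible discovery rate of at least 830 in the main list, are the authors' values as deposited. The aligner, the peak caller, their versions, the scaling of the signal and the library depths, not given in the sources used here, remain unknown.

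TSSs, exons and genes came from Ensembl release 115 without transposable elements, and sequence from RefSeq dm6. Arm lengths were compared with the peaks' coordinates. Allowed sequence is every position that the distal rule would accept. Overlap means at least 1 bp. Values in each replicate are those of the strongest overlapping peak in its ranking. Soft-masked bases are lower-case bases of the RefSeq sequence. Windows of 201 bases were searched on both strands. The distal rule and allowed length were tested on simulated data. Python 3.11.15, numpy 2.4.6, pandas 2.3.3, scipy 1.17.1 and matplotlib 3.10.9 were used.

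Named regions are the 12 strongest X distal peaks, genes hosting 3 or more, roX1 and roX2, the 3 strongest of each gene list, the neighbours of the 500 bp distance, and the closest and widest gaps. Of the 12, 1 is not reported here. The intergenic examples, other members of facing pairs, the 6-base word and the repeat-rich windows were picked with their values in view. The range in which the word's direction was counted was not planned before the data were seen. The members, lists and tests were chosen with earlier results of these data known. Of the listed symbols, those not matched to a protein-coding gene on the X were dropped. Alternatives were each replicate's list, the conservative list, other distances, stricter scores, single arms, transposable elements kept and other windows.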

Additional observations from a re-analysis of the deposited data

How the results depend on the processing

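The number of X distal peaks was 162 in the conservative list, 159 at a distance of 2000 bp, 102 in the stronger 50% of peaks, and 71 to 316 with a replicate left out. The difference in distal share, 3.73 percentage points, was 5.18 at 250 bp, 2.55 at 2000 bp, 5.11 at a score of 1000, 6.93 in the stronger 50%, 5.32 against 2R, 1.51 against 3L, 4.69 against 3R, and 2.92 to 3.62 with a replicate left out. The X was higher in each. The log2 signal difference, 0.19, was -0.02 in the stronger 50% of peaks and 0.05 to 0.25 with a replicate left out. The density ratio, 1.27, was 1.61 in the stronger 50%, 1.20 to 1.52 with a replicate left out, and 1.04 without windows over 30% soft-masked, an alternative added after the data were seen. The cause of the other changes was not tested. With an overlap of 50% of both peaks, replicate 1's list held 17.7% and replicate 2's 71.5% of the X distal peaks. In windows of 50 bp each side GAGAG was in 9.49%, GAGAGAGA in 0.633% and CACACACA in 2.53% of X distal windows. In allowed X windows of that length they were in 11.3%, 0.814% and 3.46%, so that X distal peaks were below allowed X sequence for GAGAG and GAGAGAGA, where they were above it in the longer windows. At both window lengths the allowed X share of GAGAG and GAGAGAGA lay inside the Wilson interval of the X distal share. In the shorter windows those intervals were 6.73 to 13.2% for GAGAG and 0.174 to 2.28% for GAGAGAGA. The inward share of the 6-base word stayed between 79.5% and 82.4% with a replicate left out. With transposable elements kept as genes, 313 peaks were distal. No paired analysis was possible because there is 1 group and no contrast. Depth limits cannot be given, since read counts are unknown, and the replicates' lists differ in length (4113 and 7542 peaks).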
